A study of Mus musculus with 12 samples.

Results

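Embryoid bodies that made wild-type LHX1 were compared with embryoid bodies that made a mutant form of it, both induced with doxycycline for 16 h. The comparison took 6 of the 12 libraries of the series: 3 of the line named FLAG-Lhx1 wild-type (here the wild-type line) and 3 of the line named FLAG-Lhx1 mutant (the mutant line). They were chosen by line and treatment, not by any measured value. Of 12322 genes with enough counts to be tested, 11808 lie on autosomes, and the results are about these unless a sex chromosome is named. Both lines were mouse A2lox.cre embryonic stem cells, in which a gene inserted at the *Hprt* locus is switched on by the antibiotic doxycycline, and FLAG is a short peptide tag fused to the protein. The cells were grown for 2 days as embryoid bodies, aggregates in which stem cells begin to differentiate. What was changed in the mutant *Lhx1* is not stated by the labels. The other 6 libraries are the same lines at the same time without doxycycline, and they show how far the lines differed before induction.

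LHX1 is a LIM homeodomain transcription factor of the gastrula organizer and its anterior derivatives, and mouse embryos without it fail to form a head. Its homeodomain binds DNA around a TAAT core, and its LIM domains recruit LDB1 and the SSBP proteins. Embryoid bodies at this stage resemble the epiblast as it leaves naive pluripotency and has not yet formed germ layers.

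Each library held 4289984 to 4850393 counts, and the 6 induced ones held 4298579 to 4808661. Levels are in CPM (counts made comparable between libraries with edgeR's TMM factors), given per library or as mean ± SD of 3 libraries. Differences are log2 fold changes, wild-type line over mutant line, so that a positive value is higher in the wild-type line. A gene was called at an adjusted p under 0.05 in edgeR's quasi-likelihood test. Each group was 1 line, so the form of LHX1 and the stem cell clone cannot be told apart by the induced libraries alone. Nothing in the labels ties replicates to separate cultures, so a p-value here measures only how far these libraries spread, which may be technical. In these bulk libraries, fewer cells of a type and less RNA per cell cannot be told apart. Induced wild-type replicate 2 stood apart by 1.45% of its counts on the ribosomal RNA gene *Rn45s*, against 0.0884% to 0.265% in the other 11 libraries, and untreated wild-type replicate 3 stood apart by 229 CPM of the hypoxia target *Bnip3*, against 58.5 and 63.3 CPM in the other 2 of its group. The epiblast markers *Pou5f1*, *Sox2*, *Utf1*, *Fgf5* and *Dnmt3b* were present in every library, with group means of 1033 CPM and 1378 CPM for *Pou5f1* and 2473 CPM and 2602 CPM for *Dnmt3b* in the induced wild-type and mutant.

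*Lhx1* itself was induced in both lines. Its level was 307, 289 and 293 CPM in the induced wild-type libraries and 249.9, 260.2 and 235 CPM in the induced mutant libraries, and without doxycycline it was 3.33, 1.81 and 1.12 CPM in the wild-type and 0.429, 0.407 and 0.428 CPM in the mutant. All induced wild-type libraries lay above all induced mutant libraries, by a small margin: the difference was 0.25 (SE 0.05, edgeR adjusted p = 6.93e-05). Reads from the inserted copy and from the gene's own locus on chromosome 11 cannot be told apart here. With the median difference of chromosome 11 over that of the autosomes outside the blocks described below (0.21) removed, the difference was 0.04 and the call was lost. That offset applies only to reads from chromosome 11, and the inserted copy lies at *Hprt* on the X chromosome. Without doxycycline *Lhx1* was at 3.33 CPM at most, and the share of its own locus in the induced reads was not measured. No conclusion is therefore drawn from the value with the offset. *Hprt*, the X-linked gene at the insertion site, was at 43.9, 37.3 and 43.5 CPM in the induced wild-type and at 19.95, 18.6 and 21.8 CPM in the induced mutant, a difference of 1.05 (edgeR adjusted p = 9.97e-12). Without doxycycline its means were 10.5 CPM and 7.44 CPM, so it was higher with doxycycline in both lines.

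Of the 11808 autosomal genes, 5225 (44.2%) were called between the induced lines: 2670 were higher in the wild-type (22.6%) and 2555 were lower (21.6%). Most differences were small, with a median size of 0.25 over all autosomal genes and 0.46 over those called, and 380 genes were higher (3.22%) and 418 lower (3.54%) by 2-fold or more. The lines differed to a like extent before induction: 5351 autosomal genes (45.3%) were called between the untreated lines, which share no library with the induced ones: 2679 were higher (22.7%) and 2672 lower (22.6%), and 320 (2.71%) and 431 (3.65%) by 2-fold or more. Of the induced calls, 3847 (73.6%) were also called without doxycycline, which is 71.9% of the untreated calls, and 3800 of these had the same direction. Of the 798 genes called with a difference of 2-fold or more, 613 were called in the same direction without doxycycline. A test of whether the line difference itself changed with doxycycline (the interaction of line and doxycycline) called 287 autosomal genes (2.43%), 164 with a difference shifted towards the wild-type (1.39%) and 123 shifted towards the mutant (1.04%). The libraries of the induced groups did not overlap for 6089 autosomal genes (51.6%).

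**Figure D1:**
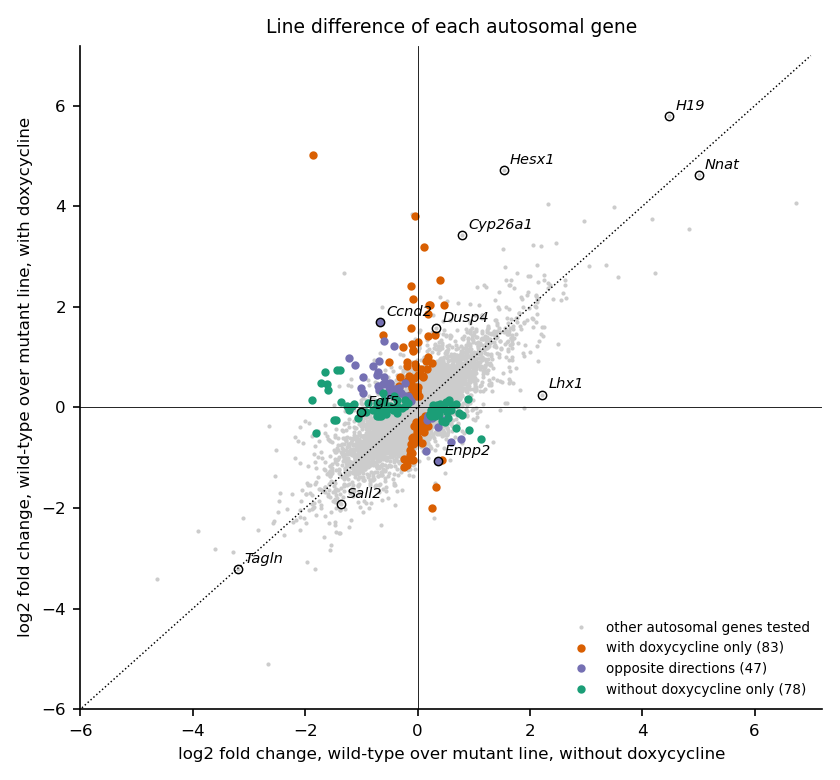
Each point is an autosomal gene, with its log2 fold change between the lines without doxycycline (x axis) and with it (y axis), wild-type over mutant. Most genes lie along the dotted line of equality. Coloured points were called in the interaction test and, in addition, only with doxycycline (83 genes), in opposite directions (47) or only without doxycycline (78). Circled genes are described in the text, and values of *Hesx1*, *Cyp26a1* and *Lhx1* without doxycycline rest on few counts.

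The 4 genes that mark this comparison fell into 2 kinds. *Hesx1*, a homeobox repressor needed for the forebrain, was at 13.9, 9.26 and 12.4 CPM in the induced wild-type and at 0.219, 0.427 and 0.618 CPM in the induced mutant, and at 0, 0.452 and 0.897 CPM and 0, 0.204 and 0.214 CPM in the untreated wild-type and mutant. It was therefore near 0 in every library but those with induced wild-type *Lhx1*. The difference between the induced lines was 4.72 (SE 0.38, edgeR adjusted p = 1.64e-15). In the untreated groups it had only 6 counts in the wild-type and 2 in the mutant, or 3.27 to 1, and the exact 95% counting interval of that ratio ran from 0.584 to 33.1, and the interaction did not pass the test (edgeR adjusted p = 0.406). *Cyp26a1*, the enzyme that degrades retinoic acid and keeps the anterior embryo free of it, was at 10.3, 8.79 and 9.13 CPM in the induced wild-type and at 0.658, 0.855 and 1.03 CPM in the induced mutant. The untreated libraries of both lines lay between 0.407 and 1.58 CPM. Its difference was 3.42 (SE 0.33, edgeR adjusted p = 8.77e-13) with doxycycline, and the interaction of 2.63 missed the threshold (edgeR adjusted p = 0.0695).

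*Dusp4* and *Sall2* differed already without doxycycline and differed more with it. *Dusp4*, a phosphatase that switches off ERK, was at 212, 212 and 208 CPM in the induced wild-type and at 72.3, 61.7 and 76.4 CPM in the induced mutant. Its untreated levels were 114, 109 and 98.0 CPM in the wild-type and 85.2, 88.9 and 79.6 CPM in the mutant, so that the untreated wild-type lay above both mutant groups and below the induced wild-type. The line difference was 1.58 (SE 0.07, edgeR adjusted p = 8.42e-28) with doxycycline and 0.33 without, and the interaction of 1.25 passed the test (edgeR adjusted p = 7.58e-15). *Sall2*, a zinc finger transcription factor, went the other way: it was at 69.9, 73.9 and 66.7 CPM in the induced wild-type and at 277, 258 and 266 CPM in the induced mutant. Its levels were 105 ± 4.88 CPM (SD, n = 3) in the untreated wild-type and 269 ± 7.66 CPM in the untreated mutant. Most of its difference of -1.93 (SE 0.06) was thus present without doxycycline (-1.36), and the interaction was -0.57 (edgeR adjusted p = 1.17e-06). *Dusp4* lies on chromosome 8 and *Sall2* in the part of chromosome 14 whose genes differed between the lines as a block, as described below.

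**Figure D2:**
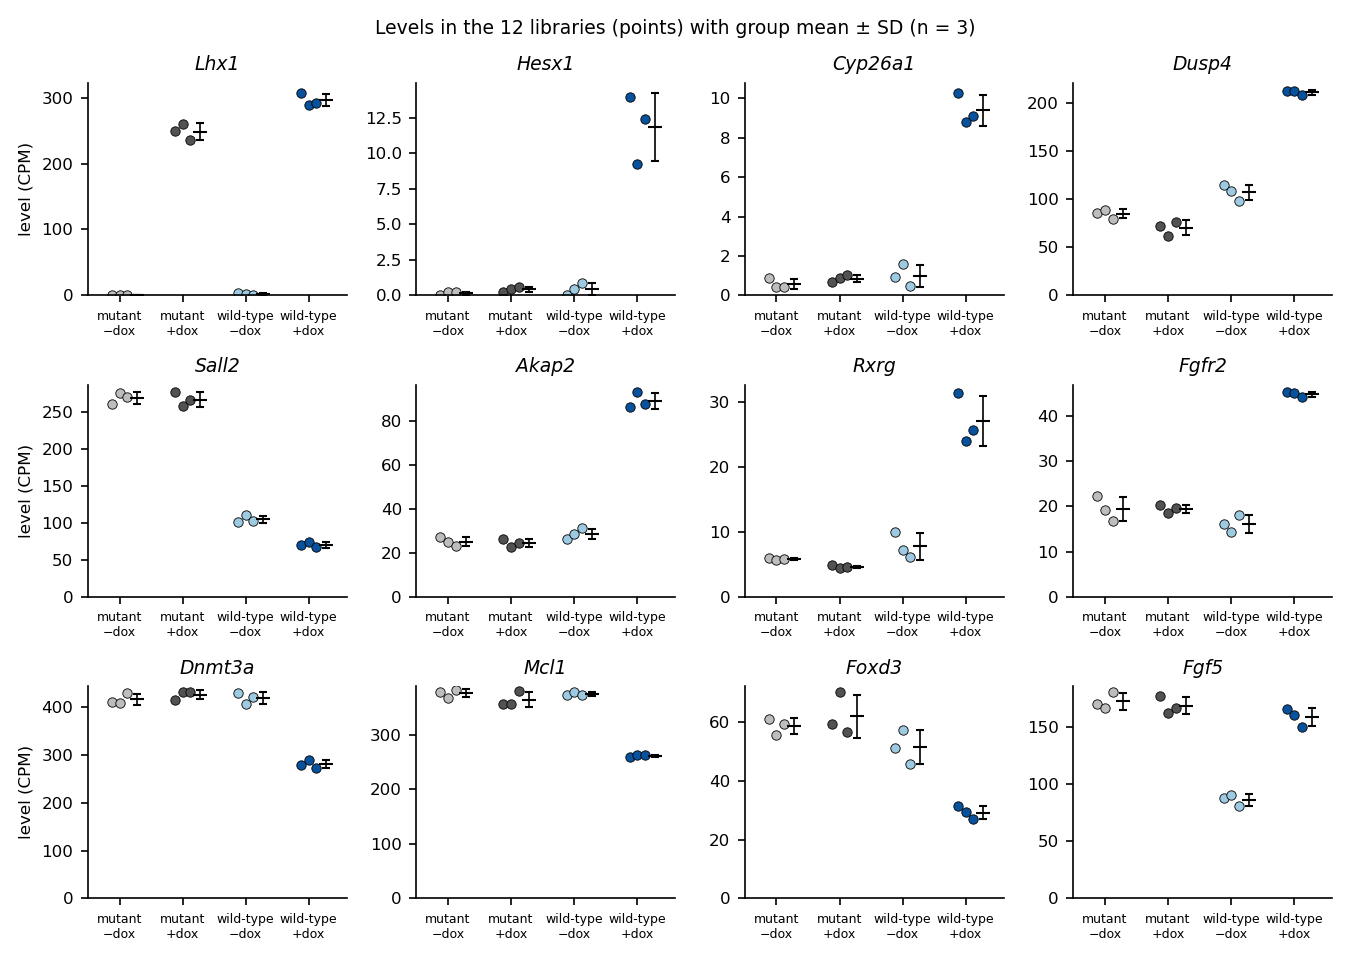
Level in CPM (y axis, from 0) of 12 genes in each library, by line and doxycycline; points are libraries and bars are the mean ± SD of 3. *Hesx1*, *Cyp26a1*, *Akap2*, *Rxrg* and *Fgfr2* are high in the induced wild-type alone, *Dnmt3a*, *Mcl1* and *Foxd3* are lowest there, *Sall2* separates the lines with and without doxycycline, and *Fgf5* is low in the untreated wild-type alone.

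The promoter windows of some genes high with induced wild-type LHX1 are shown because its homeodomain recognises TAAT. All windows shown hold TAAT or ATTA. Those of *Ina*, *Rhpn2*, *Nnat* and *Myh3*, also higher in the induced wild-type, hold 0 copies and are not shown. The choice of windows therefore does not tell how common TAAT is among such genes. Each window is the 250 bases before a transcription start listed by RefSeq (GRCm38.p6), read 5′ to 3′ on the gene's strand. Every TAAT and its reverse complement ATTA is in capitals. *Hesx1* lies at chr14:27000112-27000361 (+), *Cyp26a1* at chr19:37697558-37697807 (+), *Rxrg* at chr1:167598112-167598361 (+), *Fgfr2* at chr7:130266809-130267058 (-) and *Robo3* at chr9:37433176-37433425 (-).
Hesx1: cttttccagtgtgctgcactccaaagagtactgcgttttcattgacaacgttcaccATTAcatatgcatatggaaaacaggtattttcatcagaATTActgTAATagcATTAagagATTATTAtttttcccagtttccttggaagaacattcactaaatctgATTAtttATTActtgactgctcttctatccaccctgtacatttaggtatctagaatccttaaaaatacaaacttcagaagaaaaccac
Cyp26a1: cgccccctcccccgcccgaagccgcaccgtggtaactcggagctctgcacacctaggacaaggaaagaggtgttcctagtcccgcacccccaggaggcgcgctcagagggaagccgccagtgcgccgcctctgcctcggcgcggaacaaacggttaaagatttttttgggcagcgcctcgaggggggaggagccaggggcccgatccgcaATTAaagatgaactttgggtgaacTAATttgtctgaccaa
Rxrg: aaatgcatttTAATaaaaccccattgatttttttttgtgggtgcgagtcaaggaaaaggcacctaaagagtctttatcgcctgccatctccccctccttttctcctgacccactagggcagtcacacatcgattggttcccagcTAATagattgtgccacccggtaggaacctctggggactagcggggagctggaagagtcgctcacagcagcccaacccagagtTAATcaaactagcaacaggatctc
Fgfr2: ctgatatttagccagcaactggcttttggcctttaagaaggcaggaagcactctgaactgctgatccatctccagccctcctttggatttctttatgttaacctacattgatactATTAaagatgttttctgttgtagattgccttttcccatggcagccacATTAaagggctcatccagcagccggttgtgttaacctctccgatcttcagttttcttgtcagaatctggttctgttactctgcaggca
Robo3: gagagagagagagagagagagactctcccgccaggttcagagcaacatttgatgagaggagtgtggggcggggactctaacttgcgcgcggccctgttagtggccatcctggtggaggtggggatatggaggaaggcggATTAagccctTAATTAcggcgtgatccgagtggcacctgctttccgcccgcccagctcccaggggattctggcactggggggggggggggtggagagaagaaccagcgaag

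The *Hesx1* window holds 8 copies of TAAT or ATTA, overlapping ones counted. Of 12039 such windows of the autosomal genes tested, 17 (0.141%) hold as many or more, and 61.5% hold none. The window is also rich in A and T, with 34.0% G and C. The longer palindrome TAATTA occurs in the *Robo3* window, and *Robo3*, an axon guidance receptor, was at 3.66, 3.09 and 3.70 CPM in the induced wild-type and at 0.658, 0.427 and 0 CPM in the induced mutant. A window was found for 35 of the 50 genes that were higher in the wild-type line with doxycycline only and passed the interaction test, and 2 of these, *Robo3* and *Sclt1*, hold the palindrome. The interaction of *Robo3* lost its call when any 1 of 9 of the 12 libraries was left out (edgeR adjusted p up to 0.138) and that of *Sclt1* when any 1 of 7 was (up to 0.162). The shorter TAAT or ATTA occurs in 16 of the 35 (45.7%) and in 42.6% of the 9412 autosomal genes tested that have a window. Over these 9412 genes 2.94% hold TAATTA, and 5.62% of all 25746 autosomal genes with a RefSeq window do. Since 70.0% of the 50 genes could be matched, under the 80% set for such a check, the comparison of shares is void. A match is only a match of letters in this window.

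Among autosomal genes called with doxycycline and in the interaction test but not without doxycycline, 50 were higher in the wild-type line and 33 lower. The median difference of the 50 was 0.84 with doxycycline and -0.03 without, which follows largely from how they were chosen. *Akap2*, an anchor protein for protein kinase A, was at 86.4, 93.1 and 87.6 CPM in the induced wild-type, 26.5, 22.9 and 24.5 CPM in the induced mutant, 26.4, 28.5 and 31.2 CPM in the untreated wild-type and 27.1, 25.04 and 23.3 CPM in the untreated mutant. The induced wild-type thus stood alone, with a difference of 1.85 (SE 0.09) and an interaction of 1.66 (edgeR adjusted p = 3.64e-13). *Rxrg*, a retinoid X receptor, showed the same pattern, at 31.3, 24.0 and 25.7 CPM in the induced wild-type and 4.82, 4.49 and 4.53 CPM in the induced mutant, a difference of 2.54 (SE 0.18, edgeR adjusted p = 3.32e-18). *Fgfr2*, an FGF receptor, was at 45.3, 45.1 and 44.1 CPM against 20.4, 18.6 and 19.6 CPM, a difference of 1.20 (SE 0.11, edgeR adjusted p = 8.88e-14). *Greb1l*, which is required for kidney development, differed by 2.05, the SH3-binding protein gene *Sh3bgrl2* by 0.82, *Rhpn2* by 1.003, the neuronal intermediate filament *Ina* by 0.63 and the membrane restriction factor *Ifitm3* by 0.87. The groups' libraries did not overlap for any of these 8 genes.

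*Foxa2*, a forkhead factor of the organizer and endoderm, was at 3.43, 2.61 and 2.61 CPM and 0.658, 0 and 0.618 CPM in the induced wild-type and mutant (edgeR adjusted p = 5.69e-05). The LIM-only gene *Lmo1*, whose product binds LDB1, was at 5.49, 3.09 and 4.78 CPM and 0.877, 0 and 0 CPM (edgeR adjusted p = 1.03e-06). For both, the interaction missed the threshold (edgeR adjusted p = 0.069 and 0.0775).

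The 33 genes lower with doxycycline only had a median difference of -0.60 with it and -0.01 without. This too follows largely from how they were chosen. *Dnmt3a*, a de novo DNA methyltransferase, was at 279, 291 and 273 CPM in the induced wild-type and at 416, 433 and 432 CPM in the induced mutant, with 419.8 ± 11.8 CPM and 417 ± 12.02 CPM (SD, n = 3) in the untreated wild-type and mutant. The induced wild-type lay below the other 9 libraries, by -0.60 against the induced mutant (SE 0.04, edgeR adjusted p = 2.67e-17). *Mcl1*, an inhibitor of apoptosis, was at 259.6, 263 and 262 CPM against 356, 357 and 381 CPM, a difference of -0.48 (SE 0.04, edgeR adjusted p = 1.61e-13). *Foxd3*, a forkhead factor of the epiblast, was at 31.3, 29.2 and 27.0 CPM against 59.2, 70.1 and 56.4 CPM, a difference of -1.09 (SE 0.10, edgeR adjusted p = 4.93e-14). The other 4 genes described were smaller or like in size: the WNT receptor *Fzd7* differed by -0.37, the ubiquitin ligase *Ubr7* by -0.59, the vertebral number gene *Vrtn* by -0.73 and the MYC family gene *Mycl1* by -0.91. Passing the interaction test was a condition for choosing these 7 genes.

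In 47 genes the lines differed in opposite directions with and without doxycycline, and all 47 passed the interaction test. That follows largely from how they were grouped, since the interaction is the difference of the 2 line differences. In 34 the wild-type was lower without doxycycline and higher with it. *Ccnd2*, a G1 cyclin, was at 25.4, 29.2 and 27.4 CPM in the induced wild-type and 8.55, 7.90 and 8.86 CPM in the induced mutant, and at 6.90, 7.01 and 7.17 CPM and 10.7, 13.0 and 9.62 CPM without doxycycline. Its line difference went from -0.66 to 1.69 (interaction 2.35, edgeR adjusted p = 5.97e-11). *Eomes*, a T-box factor of the anterior streak, was at 35.0, 27.1 and 24.8 CPM and 17.5, 18.6 and 20.6 CPM with doxycycline, and its line difference went from -0.97 to 0.61. *Pax6*, of eye and brain, went from -0.73 to 0.64, the stem cell factor gene *Kitl* from -0.42 to 1.22, the amino acid transporter gene *Slc7a8* from -0.59 to 1.32 and *Sall4*, a stem cell zinc finger factor, from -0.35 to 0.36. *Pax6* was at 5.26 to 10.2 CPM in the induced libraries, and with DESeq2 its induced difference missed the threshold (adjusted p = 0.0541). In the other 13 the wild-type was higher without doxycycline and lower with it. *Enpp2*, the enzyme autotaxin, was at 43.4, 44.9 and 47.2 CPM in the induced wild-type and 94.7, 93.1 and 97.4 CPM in the induced mutant, against 124, 131 and 131 CPM in the untreated wild-type. Its line difference went from 0.37 to -1.07. That of *Pou3f1*, a POU factor of the primed epiblast, went from 0.15 to -0.87, and that of the interferon regulator *Irf1* from 0.37 to -0.39.

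In 78 further genes the interaction passed the test and the lines differed only without doxycycline. *Fgf5*, the classic primed epiblast marker, was at 166, 161 and 151 CPM in the induced wild-type and 178, 163 and 167 CPM in the induced mutant, whose ranges overlapped. Without doxycycline it was at 87.8, 90.4 and 80.9 CPM in the wild-type and 170.5, 167 and 181 CPM in the mutant. Its line difference was -0.09 (SE 0.06, edgeR adjusted p = 0.214) with doxycycline and -1.001 without. *Id3*, a BMP-responsive inhibitor of helix-loop-helix factors, had means of 47.9 CPM and 44.5 CPM in the induced wild-type and mutant and 16.4 CPM and 42.3 CPM without doxycycline. The induced differences of *Id3* (0.11) and of the receptor tyrosine kinase *Ephb1* (0.15) did not pass the test. In 126 genes the lines were called both ways and the interaction passed as well: the 47 above and 79 with 1 direction, in 46 of which the difference was wider with doxycycline. *Cxcl12*, a chemokine, went from -0.66 to -2.34, with 6.17, 8.08 and 12.8 CPM in the induced wild-type and 46.3, 47.2 and 45.1 CPM in the induced mutant. *Rbpj*, the DNA-binding partner of Notch, went from 0.13 to 0.83, with 285, 321 and 318 CPM and 171, 169 and 178 CPM.

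The largest differences between the induced lines were mostly shared with the untreated ones. *Gpx2*, a glutathione peroxidase of epithelia, was at 22.4, 21.4 and 22.8 CPM in the induced wild-type and 0.658, 1.92 and 2.27 CPM in the induced mutant, and differed by 3.75 with doxycycline and 4.18 without. *Myh3*, the embryonic myosin heavy chain, differed by 3.70 and 2.96, and *Nlrp4f*, an oocyte gene with near-identical relatives that may share its reads, by 3.56 and 4.83. On the lower side, the secreted guidance factor *Sema3c* was at 2.29, 2.14 and 2.39 CPM in the induced wild-type and 15.6, 12.4 and 13.0 CPM in the induced mutant, and differed by -2.57 and -1.67. The polysialyltransferase gene *St8sia2* differed by -2.83 and -1.56, the potassium channel gene *Kcnh8* by -2.48 and -1.46, and the RNA-binding *Samd4*, in the segment of chromosome 14 described below, by -2.45 and -3.90. Each of these 7 was called with and without doxycycline, and for none of them did the interaction pass the test (edgeR adjusted p from 0.168 for *St8sia2* and *Samd4* to 0.776 for *Gpx2*).

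The gene lists below hold genes of known function. Each is described by how many of its autosomal members tested were called, to be read against the 22.6% of all autosomal genes called higher and the 21.6% called lower, and by its median difference, which over all autosomal genes was -0.01.

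**Figure D3:**
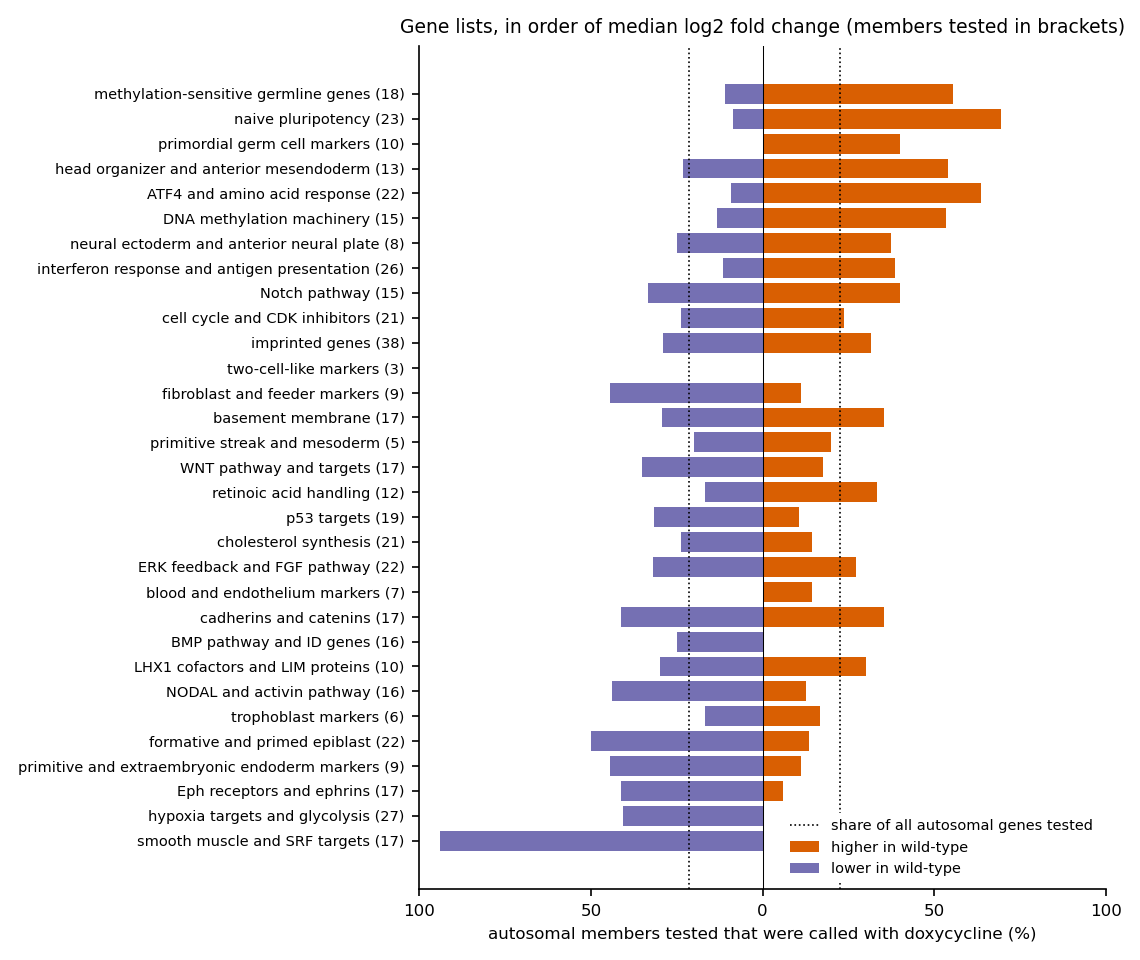
For 31 gene lists, the share of autosomal members tested that were higher (right) or lower (left) in the induced wild-type than in the induced mutant; the number tested is in brackets and dotted lines mark the shares over all autosomal genes. Smooth muscle and SRF targets were lower in 16 of 17 and naive pluripotency genes higher in 16 of 23.

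The list of head organizer and anterior mesendoderm genes had 13 of 25 members with enough counts. With doxycycline 7 were higher in the wild-type (*Cyp26a1*, *Eomes*, *Foxa2*, *Fzd8*, *Hesx1*, *Sfrp1*, *Shisa2*) and 3 lower (*Lefty1*, *Otx2*, *Tdgf1*), with a median of 0.42. Without doxycycline 0 were higher and 6 lower, with a median of -0.56. *Sfrp1*, a secreted WNT antagonist, was at 48.9, 50.4 and 45.9 CPM and 26.5, 30.3 and 26.0 CPM in the induced wild-type and mutant, and its interaction passed the test (edgeR adjusted p = 0.000129). *Tdgf1*, the NODAL co-receptor CRIPTO, was at 124, 126 and 142 CPM and 267, 279 and 256 CPM. Its difference of -1.04 passed the test, and its interaction did not. Without doxycycline *Tdgf1* had 647, 718 and 1038 counts in the wild-type libraries and 1231, 1273 and 1330 in the mutant libraries. *Otx2*, a homeobox factor of the forebrain and midbrain, was at 121, 107 and 125 CPM and 174, 167 and 152 CPM, and its difference of -0.48 turned to 0.18 once the median of its part of chromosome 14 over that of the autosomes outside these blocks (-0.66) was removed. Among the partners and relatives of LHX1, 3 of 10 were higher (*Lmo1*, *Ssbp4*, *Tle1*) and 3 lower (*Otx2*, *Ssbp2*, *Ssbp3*). *Ssbp3*, a partner of the LDB1 complex, differed by -0.70 with doxycycline and -0.60 without.

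Streak and neural genes were scarce. Of 20 autosomal streak and mesoderm genes 5 could be tested, of which *Eomes* was higher and *Wnt3* lower. *Wnt3* lost the call with DESeq2 (adjusted p = 0.101) and, with edgeR, without induced wild-type replicate 3 (adjusted p = 0.1002) or induced mutant replicate 1 (0.0613) or 3 (0.0791). Of 8 neural genes tested 3 were higher (*Pax6*, *Sox21*, *Tubb3*) and 2 lower (*Nes*, *Zfp521*), and with DESeq2 3 of the 8 were called. *Zfp521* lost the call when any induced library but mutant replicates 1 and 3 was left out (edgeR adjusted p up to 0.581). *Nes*, the intermediate filament nestin, was at 44.3, 48.5 and 42.6 CPM and 177, 179.7 and 200.05 CPM in the induced wild-type and mutant, a difference of -2.04 that was -1.94 without doxycycline. *Tubb3*, a neuronal tubulin on chromosome 8, differed by 0.40, and by -0.0036 (edgeR adjusted p = 0.977) with the median of its chromosome over that of the autosomes outside these blocks (0.41) removed.

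Naive pluripotency genes were higher in the wild-type line in 16 of 23 members and lower in 2, with a median of 0.69 (0.61 without doxycycline). *Zfp42*, also called REX1, was at 229, 215 and 227 CPM in the induced wild-type and 46.7, 41.4 and 48.4 CPM in the induced mutant, a difference of 2.30 (SE 0.07, edgeR adjusted p = 3.99e-35). *Klf2*, a Krüppel-like factor, differed by 1.37, *Dppa3* by 1.60, the orphan nuclear receptor gene *Esrrb* by 0.87, *Klf4* by 1.07 and *Nr5a2* by 1.01. Each of these 6 was also higher without doxycycline, by 1.96, 1.23, 2.25, 0.53, 1.45 and 1.57. The 2 lower members were *Nanog*, at 51.9, 45.1 and 53.7 CPM against 72.8, 64.9 and 63.5 CPM, and *Pou5f1*, at 1070.0, 985 and 1045 CPM against 1340.2, 1436 and 1358 CPM. *Pou5f1* differed by -0.42 with doxycycline and -0.15 without (interaction edgeR adjusted p = 0.00473). *Sox2* and *Utf1* did not pass the test, at 0.09 and -0.06. Formative and primed epiblast genes were lower in 11 of 22 members, higher in 3, with a median of -0.28 (-0.21 without doxycycline), or -0.44 without the 6 members on chromosomes 8, 11 and 14. The higher ones were *Grhl2* and the FGF-responsive *Etv4* and *Etv5*, at 1.24 and 0.31.

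Differences among DNA methylation genes and the germline genes that promoter methylation keeps silent were seen in both states. Of 15 methylation genes 8 were higher in the wild-type and 2 lower (*Dnmt3a* and *Gadd45a*), with a median of 0.34. Without doxycycline 8 were higher and 1 lower, and *Dnmt3a* was not called (0.01, edgeR adjusted p = 0.876). The interaction passed the test for both *Dnmt3a* and *Gadd45a*. *Dnmt3l*, the cofactor of the de novo methyltransferases, was at 200.4, 191 and 197 CPM in the induced wild-type and 60.9, 64.5 and 66.8 CPM in the induced mutant, a difference of 1.61 with doxycycline and 1.70 without. *Uhrf1*, which recruits the maintenance methyltransferase, differed by 0.53, the demethylating *Tet1* by 0.88 and *Zfp57*, which guards imprints, by 1.13. Of 18 methylation-sensitive germline genes 10 were higher and 2 lower, with a median of 0.83 (0.55 without doxycycline). *Tex19.1*, of germ cells and placenta, was at 145, 141 and 132 CPM and 21.0, 24.8 and 21.6 CPM, a difference of 2.63 (SE 0.09, edgeR adjusted p = 3.11e-32). The testis tubulin *Tuba3a* differed by 1.76. The synaptonemal complex gene *Sycp3* went the other way, at 19.4, 20.7 and 26.5 CPM against 90.3, 82.0 and 93.7 CPM, a difference of -1.99.

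Imprinted genes, which are expressed from 1 parental copy, differed in both directions: 12 of 38 were higher in the wild-type line and 11 lower. *H19*, a maternally expressed RNA with the largest fitted log2 fold change of the autosomal genes tested, was at 7.999, 8.55 and 11.5 CPM in the induced wild-type and 0.219, 0.214 and 0 CPM in the induced mutant, which is 124 against 2 counts or 66.3 to 1 (counting interval 17.97 to 553). *Nnat*, a paternally expressed membrane protein gene, was at 17.6, 20.9 and 21.3 CPM against 0.877, 0.855 and 0.618 CPM, a difference of 4.63 (SE 0.26) that was 5.002 without doxycycline. *Plagl1*, a paternally expressed zinc finger gene, had 37 against 2 counts with doxycycline, or 19.8 to 1 (counting interval 5.10 to 169). Without doxycycline it had 38 against 0 counts, which is at least 13.8-fold higher in the wild-type with a floor of 3 counts over the group. *Mest*, also paternally expressed, was at 390.4, 366 and 368 CPM and 136, 125 and 126 CPM, and its difference widened from 0.71 to 1.54 (interaction edgeR adjusted p = 4.85e-12). On the lower side, 3 noncoding RNAs of the *Dlk1* to *Dio3* domain of chromosome 12 were lower together: *Rian* at 246, 244 and 259 CPM against 535, 518 and 516 CPM, *Meg3* at -1.01 and *Mirg* at -1.33. *Gnas*, which encodes a G protein subunit, was at 249, 228 and 239 CPM against 503, 516 and 505 CPM, a difference of -1.09. These counts do not tell the parental copies apart.

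Smooth muscle and SRF target genes, which encode contractile and actin-binding proteins, were lower in the wild-type line in 16 of 17 members and higher in 0, with a median of -0.88. Without doxycycline all 17 were lower, with a median of -0.69. *Tagln*, which encodes transgelin, was at 14.6, 12.1 and 15.4 CPM in the induced wild-type and 129.8, 131 and 131 CPM in the induced mutant, a difference of -3.21 (SE 0.09, edgeR adjusted p = 2.9e-35), and of -3.20 without doxycycline. Smooth muscle actin *Acta2* was at 4.34, 3.80 and 3.91 CPM against 16.2, 20.9 and 21.0 CPM, and the calponin gene *Cnn1* at 11.9, 14.5 and 10.9 CPM against 53.1, 64.3 and 54.2 CPM. The cardiac and skeletal actin genes *Actc1* and *Acta1*, which are not in that list, differed by -3.41 and -2.73. *Acta1* reached 14.6 CPM in untreated wild-type replicate 3, against 1.19 and 2.26 CPM in the other 2 of its group. No gene of the list passed the interaction test towards the mutant, and 1 passed towards the wild-type.

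**Figure D4:**
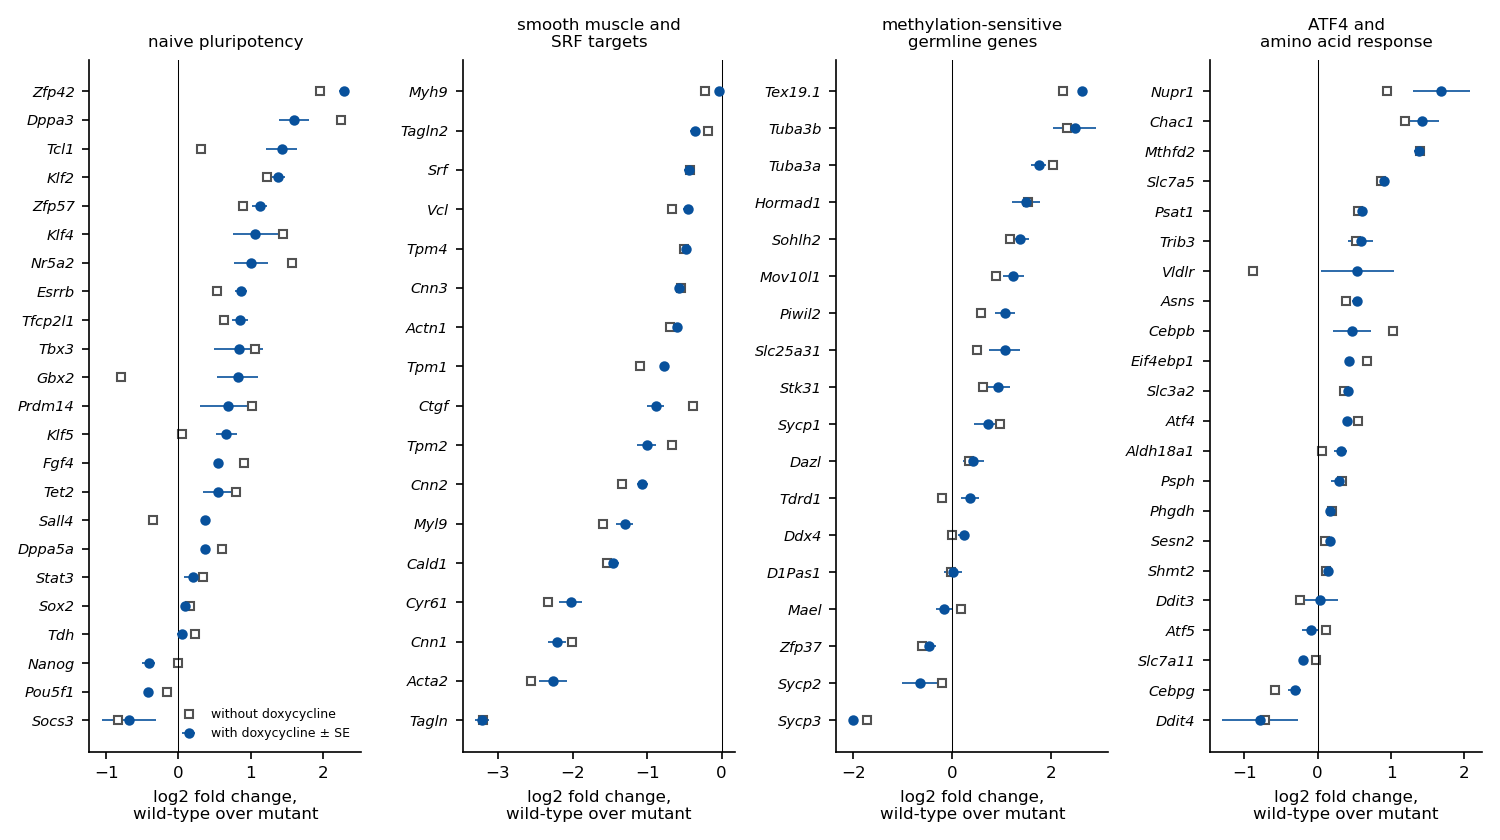
Log2 fold change, wild-type over mutant line, of each autosomal member tested in 4 gene lists (x axis), with doxycycline (filled, bar ± SE) and without (open squares). Most naive, germline and ATF4 genes lie right of 0 and smooth muscle and SRF targets left of it in both states; *Gbx2* and *Sall4* change side.

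Of 22 ERK and FGF pathway genes 6 were higher and 7 lower. *Etv4*, an ETS factor induced by FGF, was at 62.8, 64.8 and 63.7 CPM against 27.0, 25.8 and 28.2 CPM, while the ERK phosphatase *Dusp6* was at 92.3, 96.2 and 91.1 CPM against 130.4, 140.4 and 163 CPM. These are differences of 1.24 and -0.64 with doxycycline, and they were 1.09 and -0.70 without. Neither interaction passed the test (edgeR adjusted p = 0.712 and 0.879). The immediate early gene *Egr1* differed by -1.19 and the feedback inhibitor *Spry2* by -0.55, so that targets of this pathway lay on both sides. Of 16 NODAL and activin genes 2 were higher and 7 lower. One of the higher, *Lefty2*, an inhibitor of NODAL, was just past the threshold and lost the call with DESeq2 (adjusted p = 0.149) and when any 1 of the 6 induced libraries was left out (edgeR adjusted p from 0.0548 to 0.1404). The SMAD corepressor gene *Skil* differed by -0.61 (interaction edgeR adjusted p = 0.0123). Of 16 BMP genes 0 were higher and 4 lower, or 2 in all with DESeq2. *Id2* was at 15.5, 12.4 and 13.7 CPM against 18.6, 19.4 and 27.0 CPM. Of 17 WNT genes 3 were higher (*Ccnd2*, *Notum*, *Sfrp1*) and 6 lower, among them *Ctnnb1*, which encodes β-catenin, at -0.36 and *Tcf7* at -0.54. Without doxycycline *Ctnnb1* differed by -0.37.

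Of 15 Notch genes 6 were higher and 5 lower. The ligand gene *Dll3* was at 21.3, 21.4 and 19.13 CPM against 6.80, 11.3 and 7.62 CPM, a difference of 1.26 with doxycycline and -0.10 without (interaction edgeR adjusted p = 0.000187). The receptors differed from each other, with *Notch1* at 1.03 and *Notch3* at -0.39. Of 12 genes of retinoic acid handling 4 were higher (*Crabp1*, *Cyp26a1*, *Rarg*, *Rxrg*) and 2 lower. The lower ones were the binding protein gene *Crabp2*, at 10.3, 9.26 and 11.96 CPM against 31.8, 31.6 and 35.0 CPM, and *Dhrs3*, which reduces retinaldehyde, at 1.37, 0.238 and 0.870 CPM against 3.95, 2.78 and 2.88 CPM. Their differences were -1.64 and -1.90 with doxycycline and -1.42 and -0.83 without, the last not called. For both, the interaction did not pass the test (edgeR adjusted p = 0.750 and 0.504).

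Of 17 cadherin and catenin genes 6 were higher and 7 lower. *Cdh3*, P-cadherin, was at 72.9, 58.9 and 67.6 CPM against 39.2, 44.0 and 35.0 CPM and *Cdh11* at 7.54, 6.89 and 7.61 CPM against 2.63, 2.56 and 2.88 CPM. Both lie on chromosome 8, and both passed the interaction test (edgeR adjusted p = 0.00901 and 0.00382). That call was lost for *Cdh3* with DESeq2 (adjusted p = 0.0802) and, with edgeR, without induced mutant replicate 3 (adjusted p = 0.0534) or untreated wild-type replicate 2 (0.0542), and for *Cdh11* without untreated mutant replicate 2 (0.0606). Of 17 Eph receptor and ephrin genes 1 was higher and 7 lower, with *Epha1* at 39.3, 38.2 and 40.2 CPM against 83.5, 80.3 and 82.2 CPM. *Epha1* differed by -1.06 with doxycycline and -0.70 without, and its interaction missed the threshold (edgeR adjusted p = 0.0701). Of 17 basement membrane genes 6 were higher and 5 lower. The laminin genes *Lamc1* and *Lama1* differed by 0.63 and 0.73, and the nidogen *Nid2* by -0.39.

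Of 27 hypoxia and glycolysis genes 0 were higher in the wild-type and 11 lower, with a median of -0.41 (0 higher, 9 lower and a median of -0.38 without doxycycline). In the interaction test 0 of them passed. *Ldha*, lactate dehydrogenase, was at 1225, 1199.9 and 1329 CPM in the induced wild-type and 2576, 2716 and 2522 CPM in the induced mutant, a difference of -1.06, and *Tpi1*, triose phosphate isomerase, was at 326, 316 and 380.3 CPM against 702, 724 and 669 CPM. The glucose transporter *Slc2a3* spread more, at 218, 252 and 332 CPM against 555, 595 and 536 CPM. *Bnip3*, a hypoxia target, varied within both groups, at 52.1, 65.8 and 107 CPM in the induced wild-type and 133, 134 and 83.4 CPM in the induced mutant. The summed level of the list was 14247 to 15691 CPM in the induced wild-type and 20133 to 21770 CPM in the induced mutant. The part of such variation between libraries in these differences was not tested. Of 22 ATF4 and amino acid response genes 14 were higher and 2 lower, with a median of 0.41 (12 higher, 1 lower and a median of 0.35 without doxycycline). Again 0 passed the interaction test. *Mthfd2*, a mitochondrial folate enzyme, was at 124, 131 and 117 CPM against 44.3, 47.2 and 51.1 CPM, a difference of 1.38, and the amino acid transporter *Slc7a5*, on chromosome 8, differed by 0.91. Of 21 cholesterol synthesis genes 3 were higher and 5 lower, of 19 p53 targets 2 higher and 6 lower, and of 21 cell cycle genes 5 higher and 5 lower. Of these, the p53 target *Pmaip1* at 0.50, cyclin *Ccne2* at 0.85 and the CDK inhibitor *Cdkn1b* at -0.50.

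Of 26 interferon and antigen presentation genes 10 were higher and 3 lower. The 3 *Ifitm* genes on chromosome 7 were higher together and passed the interaction test. *Ifitm1* was at 135, 123 and 134 CPM against 49.1, 55.1 and 55.0 CPM and differed by 1.30 with doxycycline and 0.39 without. *Ifitm2* went from 0.10 to 0.61 and *Ifitm3* from -0.04 to 0.87. These are near-identical neighbours, so reads may be split between them. The lower ones were *Bst2*, *Irf1* and *Tapbp*, the last at -0.72.

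Of 20 autosomal primitive and extraembryonic endoderm markers 9 could be tested, and 1 was higher and 4 lower. Their summed level was 450.5 to 475 CPM in the induced wild-type and 655 to 693 CPM in the induced mutant, and most of it came from *Apoe*, at 175, 169 and 167 CPM against 309, 339.7 and 315 CPM, and from *Sparc*, at 121, 127 and 119 CPM against 166, 158 and 166 CPM. Of 6 trophoblast markers tested 1 was higher and 1 lower (summed level 166 to 184 CPM against 185 to 192 CPM), and *Plac1*, *Prl3d1* and *Tpbpa* had no counts in the 6 libraries. Of 9 fibroblast and feeder markers 1 was higher and 4 lower (95.5 to 102 CPM against 166 to 170.3 CPM), with *Vim* at -0.93 and *Acta2* among the lower, and leaving out induced mutant replicate 3 left 2 called. Of 7 blood and endothelium markers 1 was higher, *Pecam1*, at 1.08 (68.8 to 80.3 CPM against 50.8 to 57.1 CPM), and *Hbb-bh1* and *Hba-x* had no counts. Of 10 primordial germ cell markers 4 were higher and 0 lower (177 to 199.6 CPM against 126 to 133 CPM), and of 3 two-cell markers 0 were called (12.3 to 17.8 CPM against 10.5 to 17.1 CPM). The part of such cells in the differences above was not tested.

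Genes of 3 chromosomes differed between the lines as a block, with and without doxycycline. On chromosome 8 the median difference was 0.37, and 401 of 664 genes tested (60.4%) were higher in the wild-type line. On chromosome 11 it was 0.18, with 421 of 990 higher (42.5%). Between 40 and 80 Mb of chromosome 14, a segment chosen after its values were seen, it was -0.69, with 189 of 250 lower (75.6%). The untreated medians were 0.39, 0.19 and -0.70, and the rest of chromosome 14 had a median of -0.06. Over the 9713 genes of the other autosomes the median was -0.03, with 1803 higher and 2176 lower (41.0% called). These 3 chromosomes held 1246 of the 5225 calls (23.8%), and 664, 990 and 441 of the 11808 autosomal genes tested. DNA copy number was not measured here. Genes described above that lie in these blocks are *Dusp4*, *Zfp42*, *Klf2*, *Sfrp1*, *Ssbp4*, *Cdh3*, *Cdh11*, *Acta1*, *Bst2*, *Tubb3* and *Slc7a5* on chromosome 8, *Lhx1*, *Tex19.1*, *Myh3*, *Notum*, *Etv4*, *Tcf7*, *Irf1*, *Wnt3*, *Sparc* and *Pecam1* on chromosome 11, and *Sall2*, *Otx2*, *Samd4*, *Shisa2* and *Slc7a8* in the segment of chromosome 14. *Hesx1*, *Nid2*, *Sox21* and *Spry2* lie on chromosome 14 outside the segment. Some shorter stretches were also shifted in both states. In windows of 10 Mb from 80 to 110 Mb of chromosome 4 the medians were 0.38, 0.09 and 0.30, and 0.43, 0.20 and 0.25 without doxycycline. From 0 to 20 Mb of chromosome 14 they were -0.46 and -0.30, and -0.54 and -0.13 without doxycycline. No offset was applied to such stretches. On the sex chromosomes, 81 of 449 X-linked genes were higher (18%) and 134 lower (29.8%), and 7 of 8 Y-linked genes were higher (87.5%). The summed Y-linked level was 465 to 481 CPM in the induced wild-type and 3.20 to 4.12 CPM in the induced mutant.

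**Figure D5:**
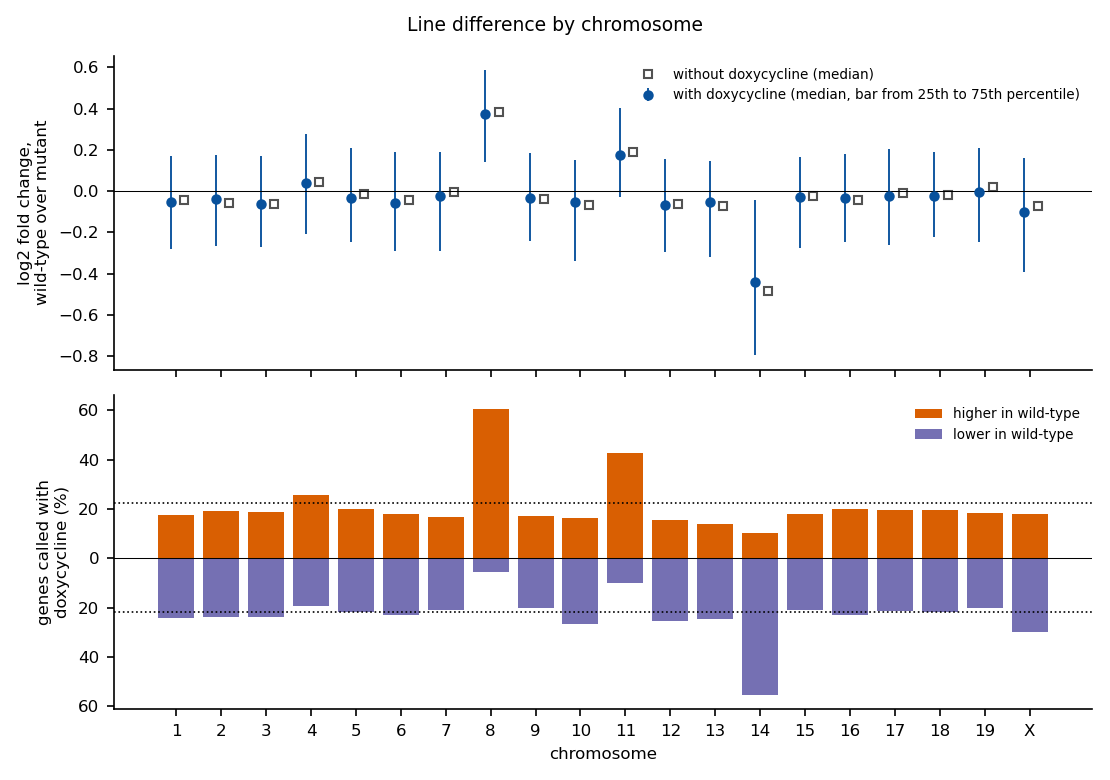
By chromosome (x axis): above, the median log2 fold change of the genes tested, wild-type over mutant line, with doxycycline (filled, bar from the 25th to the 75th percentile) and without (open); below, the share of genes higher or lower with doxycycline, with dotted lines at the autosomal shares of 22.6% and 21.6%. Chromosomes 8 and 11 lie above 0 and chromosome 14 below it in both states.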

How the data were processed

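The authors deposited 1 table of read counts per gene symbol, 23086 symbols in 12 libraries, used as deposited. Per the labels' protocols, column-purified RNA of embryoid bodies went into TruSeq RNA libraries. Trimmomatic 0.33, TopHat2 2.1.1, limma and the mm10 genome are named, per the submitters' processing notes. No counting tool, annotation or strand setting is given in the sources used here, so overlapping, antisense and near-identical genes can share reads. Columns were matched to libraries by name. Another 27 symbols had become dates (0.150% of counts) and were fitted without being named.

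Genes were tested with edgeR's quasi-likelihood test (edgeR 4.0.16, R 4.3.3) on the counts of all 12 libraries, with 1 mean per group, TMM scaling, robust estimation and the filterByExpr filter (minimum count 10, total 15, here 2.18 CPM). This left 12322 genes with 99.8% of the counts. The 3 contrasts were the lines with doxycycline, the lines without it, and the difference of the 2 (the interaction). Calls were made at a Benjamini-Hochberg adjusted p under 0.05 over all genes tested. The SE is derived from the F statistic (size of the log2 fold change over the root of F), and is least reliable at low counts. Counting intervals are exact, at 95%, and cover counting error only. At this depth small differences in rare transcripts were not detectable. The fit was tested on simulated data.

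Positions came from GENCODE M21 and, for 672 genes, RefSeq, matched by symbol for 99.5% of genes tested. Promoters came from RefSeq's GRCm38.p6. No replicates were merged, since every pair differed beyond sampling noise (chi-square per degree of freedom at least 1.11).

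The members and gene lists were chosen with earlier results of these data known, and lists are described without a set test. Named genes were, outside predicted genes and small RNAs: the 8 called genes with the largest difference in each direction (at least 5 CPM in the higher group, no overlap); the 8 in each direction with the smallest interaction p among those called with doxycycline and in the interaction but not without doxycycline; the 4 in each direction with the smallest p at 100 CPM or more; up to 2 members of each list in each direction; and *Lhx1*, *Hprt* and the 4 markers. Some genes that these rules pick are not reported here. Other genes named, among them those that changed direction, *Foxa2*, *Cxcl12*, *Rbpj*, *Id3*, *Ephb1*, *Ldha*, *Tpi1*, *Slc2a3*, *Bnip3*, *Meg3*, *Mirg*, *Plagl1*, *Tet1*, *Zfp57*, *Esrrb*, *Klf4*, *Nr5a2*, *Egr1*, *Robo3* and *Sclt1*, were chosen after their values were seen. The alternatives were DESeq2 1.42.0, limma-voom (limma 3.58.1), other scalings, no filter, a replicate block, libraries left out, a test against a 1.5-fold change, and a fit of the 6 induced libraries. An offset for the medians of chromosomes 8, 11 and part of 14, relative to the other autosomes, and counts without those chromosomes, were chosen after seeing the data.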

Additional observations from a re-analysis of the deposited data

Results flagged for a closer look

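Genes are listed here because the line difference with doxycycline differed from that without it in edgeR's interaction test (adjusted p under 0.05). Each value is the interaction on the log2 scale, wild-type over mutant, with doxycycline minus without. Of the autosomal genes tested, 2.43% passed this test. Among genes that differed between the lines with doxycycline only, the interaction was positive for *Robo3* 3.08, *Rxrg* 2.14, *Cdh11* 2.06, *Greb1l* 1.85, *Akap2* 1.66, *Fgfr2* 1.46, *Dll3* 1.35, *Sh3bgrl2* 1.01, *Ifitm3* 0.90, *Sfrp1* 0.83, *Rhpn2* 0.82, *Ina* 0.78, *Sclt1* 0.75, *Cdh3* 0.58 and *Ifitm2* 0.51. It was negative for *Foxd3* -0.90, *Mycl1* -0.80, *Vrtn* -0.64, *Dnmt3a* -0.61, *Tapbp* -0.61, *Skil* -0.51, *Ubr7* -0.51, *Mcl1* -0.47 and *Fzd7* -0.44. Among genes whose line difference changed direction, it was *Ccnd2* 2.35, *Slc7a8* 1.91, *Kitl* 1.63, *Eomes* 1.58, *Enpp2* -1.44, *Pax6* 1.36, *Pou3f1* -1.02, *Irf1* -0.76 and *Sall4* 0.72. Among genes that differed without doxycycline only, it was *Ephb1* 2.02, *Id3* 1.48 and *Fgf5* 0.91. Among genes that kept their direction and differed more with doxycycline, it was *Cxcl12* -1.68, *Dusp4* 1.25, *Ifitm1* 0.91, *Mest* 0.83, *Rbpj* 0.71, *Gadd45a* -0.68, *Sall2* -0.57, *Hes6* -0.44, *Rian* -0.38 and *Pou5f1* -0.26. Among those that kept it and differed less with doxycycline, it was *Lhx1* -1.97. The value of *Lhx1* rests on 27 and 6 counts in the untreated wild-type and mutant groups and that of *Robo3* on 12 and 12. Left out 1 at a time, at least 1 library ended the interaction call of *Lhx1*, *Cdh3*, *Cdh11*, *Hes6*, *Robo3*, *Sclt1* and *Tapbp*. DESeq2 ended that of *Pax6*, *Lhx1*, *Cdh3*, *Hes6*, *Sclt1* and *Tapbp*.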

How the results depend on the processing

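The counts of autosomal genes called with doxycycline, higher and lower, moved by over 1.5 times only when a 1.5-fold change was set as the null: 317 higher and 406 lower passed, against 2670 and 2555. The untreated lines then gave 277 and 417, and the interaction 22 and 4. For the interaction DESeq2 called 87 and 52, against 164 and 123. Leaving out each library in turn gave 2315 to 2470 higher and 2171 to 2269 lower with doxycycline, 123 to 174 and 89 to 132 for the interaction, and 2340 to 2453 and 2333 to 2441 without doxycycline. Without both libraries that stood apart these were 2563 and 2375 with doxycycline and 152 and 120 for the interaction. With genes on chromosomes 8, 11 and 14 left out, 1803 were higher and 2176 lower. With an offset for the medians of chromosomes 8, 11 and part of 14, each taken relative to the median of the other autosomes (0.41, 0.21 and -0.66 with doxycycline), 4 named genes changed sign: *Fdft1* (0.030), *Otx2* (0.18), *Trp53* (-0.0038) and *Tubb3* (-0.0036). Of these, *Otx2* was called in its new direction (edgeR adjusted p = 0.0181) and the other 3 lost the call.

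Of 140 named genes called with doxycycline, 14 lost the call in an alternative other than the 1.5-fold test. *Fdft1*, *Lhx1*, *Mvd*, *Tnfrsf10b*, *Trp53* and *Tubb3* lost it with the offset only. *Acvr1*, *Lefty2*, *Pax6*, *Pdgfrb*, *Sclt1*, *Slc7a11*, *Wnt3* and *Zfp521* lost it in at least 1 other alternative. Of 47 called in the interaction 8 lost that call in such an alternative: *Cdh11*, *Cdh3*, *Hes6*, *Lhx1*, *Pax6*, *Robo3*, *Sclt1* and *Tapbp*. *Dnmt3b*, not called in the main test, was called by limma-voom (adjusted p = 0.0421) and, with both libraries that stood apart left out, by edgeR (adjusted p = 0.0361). The cause of these changes was not tested. Same-numbered libraries correlated at -0.071 to 0.079 in their deviations from group means, and differently numbered ones at -0.097 to 0.087. No pairing by replicate number was thus seen, but correlations this near 0 cannot exclude it. With the replicate number as a block, 2607 genes were higher and 2512 lower with doxycycline, 2619 and 2628 without, and 149 and 118 in the interaction. Depth limits what can be said of genes with few counts, such as untreated *Hesx1* and *Cyp26a1*.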
